A study of Homo sapiens with 9 samples.

Results

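Genes of the response to low oxygen and of glycolysis were followed in HEK293 cells in which a subunit of DBIRD, a complex that acts in transcription and splicing, had been targeted with small interfering RNA (siRNA). The genes were chosen by name: 43 symbols that cover the subunits and regulators of the hypoxia-inducible factor (HIF), HIF targets outside glycolysis, and the proteins that take up glucose, break it down and handle lactate and pyruvate. VEGFA and DDIT4, which the stress factor ATF4 controls too, were kept out of the list. On the arrays 36 of the 43 had a probe set whose annotation gave that gene alone, among 22011 probe sets and 14232 genes with 1 symbol. EGLN1 and SLC2A3 shared their probe sets with SCAND2P and SLC2A14, and these 2 genes were not analysed here, nor were CA9, ANKRD37, GAPDH, PGAM1 and SLC16A3. The 36 comprised 5 HIF subunits and regulators, 13 targets outside glycolysis, and 18 genes of glucose and lactate metabolism. No filter on low values was applied, so all 36 entered the fit.

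HEK293 is a human embryonic kidney cell line, grown here in medium with serum. All groups were harvested 48 h after transfection: cells with siRNA against DBC1 (siDBC1; the gene is now called CCAR2), cells with siRNA against ZNF326, also known as ZIRD (labelled siZNF326), and cells with control siRNA (siCTR). Each group held 3 arrays from independent experiments, 9 in all, and the labels name no low-oxygen treatment in any of them. The siRNAs were aimed at either subunit of the DBIRD complex. The comparisons ask which transcripts differ between the groups as labelled, since a lower ZNF326 transcript was not seen in the arrays labelled siZNF326 (below). Every value is a log2 expression value of a probe set on an array, so a difference of 1 is a 2-fold difference, and levels of different genes are not compared.

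HIF pairs an oxygen-sensitive alpha subunit, HIF-1 alpha (HIF1A) or HIF-2 alpha (EPAS1), with ARNT. When oxygen is present, prolyl hydroxylases of the EGLN family mark the alpha subunit, the VHL protein binds the mark and the subunit is degraded, so much of the control acts on protein and not on HIF1A transcript. When oxygen is scarce the pair binds short DNA elements near its targets and raises genes for glucose uptake, glycolysis, collagen modification and removal of mitochondria.

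The letters that such elements share can be read in the promoters of the genes followed here. In RefSeq windows of 300 bases, from 250 before to 50 after an annotated start, the core ACGTG was searched on both strands, where it reads ACGTG or CACGT and both overlap in CACGTG. It lay in 39.3% of the 61 windows of these genes and in 21.4% of all 35116 windows of that length. By gene, 18 of the 33 matched by symbol held it in at least 1 window, and none was used for VHL, NDRG1 and BNIP3L. The wider search for ACGTG or GCGTG matched 68.9% of their windows and 48.4% of all windows. A match describes letters only and does not show that HIF binds there. On all siDBC1 arrays 6 genes lay entirely below siCTR (3.66% of all probe sets), and 4 of the 5 with a window held the core. Of the 2 above (5.18%), 0 held it. In the arrays labelled siZNF326, 11 genes lay above (12.9%), and 3 of the 10 with a window held it. Of the 2 below (5.27%), 2 held it. These small counts are by gene, over 1 or more windows each, so the shares of windows are no measure for them. Which genes lie apart changes when 1 array is omitted, and a link between core and direction was not tested. The 6 windows below are examples from these genes, chosen with their values and cores in view to show windows with many, few and no cores, so they hold the core more often than the genes they come from. They are written in lower case 5′ to 3′ with the core in capitals, on build GRCh38.p14: P4HA1 at chr10:73096817-73097116 (minus strand), HK2 at chr2:74834920-74835219 (plus strand), LOX at chr5:122078210-122078509 (minus strand), LDHA at chr11:18394313-18394612 (plus strand), BHLHE40 at chr3:4979187-4979486 (plus strand) and PKM at chr15:72231141-72231440 (minus strand). P4HA1 has 1 core, HK2 has 2, LOX has 4, LDHA and BHLHE40 have 3 each and PKM has 0. For HK2, LOX and LDHA, which have 2, 3 and 2 windows, the one with the most cores, and then with the most matches of the wider search, was taken.
P4HA1: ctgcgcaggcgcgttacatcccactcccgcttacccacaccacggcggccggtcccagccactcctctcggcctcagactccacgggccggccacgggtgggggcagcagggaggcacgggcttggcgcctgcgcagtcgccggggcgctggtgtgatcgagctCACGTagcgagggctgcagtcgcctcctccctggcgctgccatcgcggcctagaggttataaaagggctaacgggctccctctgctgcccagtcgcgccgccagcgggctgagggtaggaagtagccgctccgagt
HK2: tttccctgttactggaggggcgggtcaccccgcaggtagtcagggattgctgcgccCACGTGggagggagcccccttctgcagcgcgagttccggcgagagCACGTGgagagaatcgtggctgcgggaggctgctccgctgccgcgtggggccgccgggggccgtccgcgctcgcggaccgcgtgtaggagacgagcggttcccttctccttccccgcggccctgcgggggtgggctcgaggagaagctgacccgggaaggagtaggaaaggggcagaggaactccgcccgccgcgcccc
LOX: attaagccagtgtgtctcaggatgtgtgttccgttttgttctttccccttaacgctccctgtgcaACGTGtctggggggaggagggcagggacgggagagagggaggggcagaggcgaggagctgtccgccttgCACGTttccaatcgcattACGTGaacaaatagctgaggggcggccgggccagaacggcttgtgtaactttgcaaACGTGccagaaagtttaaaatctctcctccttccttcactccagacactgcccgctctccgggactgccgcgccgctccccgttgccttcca
LDHA: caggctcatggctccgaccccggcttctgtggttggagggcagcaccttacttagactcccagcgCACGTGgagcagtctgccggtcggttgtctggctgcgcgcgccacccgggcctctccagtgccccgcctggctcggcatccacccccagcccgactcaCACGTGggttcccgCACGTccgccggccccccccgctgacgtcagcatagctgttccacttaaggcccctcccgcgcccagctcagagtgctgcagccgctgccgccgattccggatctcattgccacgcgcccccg
BHLHE40: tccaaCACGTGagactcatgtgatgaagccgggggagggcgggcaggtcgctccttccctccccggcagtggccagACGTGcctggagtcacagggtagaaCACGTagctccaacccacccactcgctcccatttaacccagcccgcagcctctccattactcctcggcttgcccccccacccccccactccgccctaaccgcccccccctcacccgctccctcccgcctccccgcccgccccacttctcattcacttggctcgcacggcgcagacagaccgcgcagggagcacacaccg
PKM: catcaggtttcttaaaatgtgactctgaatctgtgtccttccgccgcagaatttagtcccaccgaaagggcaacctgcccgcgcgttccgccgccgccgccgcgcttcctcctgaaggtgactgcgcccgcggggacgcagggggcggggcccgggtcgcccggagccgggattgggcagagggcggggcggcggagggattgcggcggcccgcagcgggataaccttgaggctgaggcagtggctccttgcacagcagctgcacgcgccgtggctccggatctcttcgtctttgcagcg

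The targeted transcripts were checked first. CCAR2 read 6.50, 6.54 and 6.65 in siDBC1, 8.01, 7.95 and 7.99 in the arrays labelled siZNF326 and 7.67, 7.67 and 7.84 in siCTR, and all siDBC1 arrays lay below all others, with a difference from siCTR of −1.16 (SE 0.079, adjusted p = 0.0116). The adjusted p of that difference ran from 0.0367 to 0.122 over the 9 omissions of 1 array. ZNF326 read 6.24, 5.64 and 7.32 in siDBC1, 6.12, 5.56 and 5.81 in the arrays labelled siZNF326 and 5.25, 5.64 and 5.76 in siCTR, and the depletion that the label siZNF326 names was not seen, with a difference of 0.28 (SE 0.39, adjusted p = 0.851), so the name is used below as a label of arrays. Of 6 markers checked for HEK293, KRT8, KRT18, VIM and NEFL read above the upper quartile on all 9 arrays, NEFM on 3 and PAX2 on 0. Of 11 markers of blood, liver and fibroblasts, none read above it on any array. PTPRC, CD3E, ALB and DCN were below the lower quartile on all 9, LUM on 8 and HBB on 5. CD14, APOA1, TTR, COL1A1 and COL3A1 were below it on 0. Array medians ran from 5.58 to 5.89 in siDBC1, from 5.76 to 5.90 in the arrays labelled siZNF326 and from 5.67 to 5.78 in siCTR. Replicate 2 of siDBC1 had the lowest median and was the lowest of the 9 arrays for 21 of the 36 genes (33.7% of all probe sets). Replicate 1 of the arrays labelled siZNF326 had the highest median and was the highest for 21 of the 36 (25.6% of all probe sets), and replicate 3 of siDBC1 stood close to it. Each array measured RNA from a whole culture, so fewer cells with a transcript and less of it per cell cannot be told apart.

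**Figure D1:**
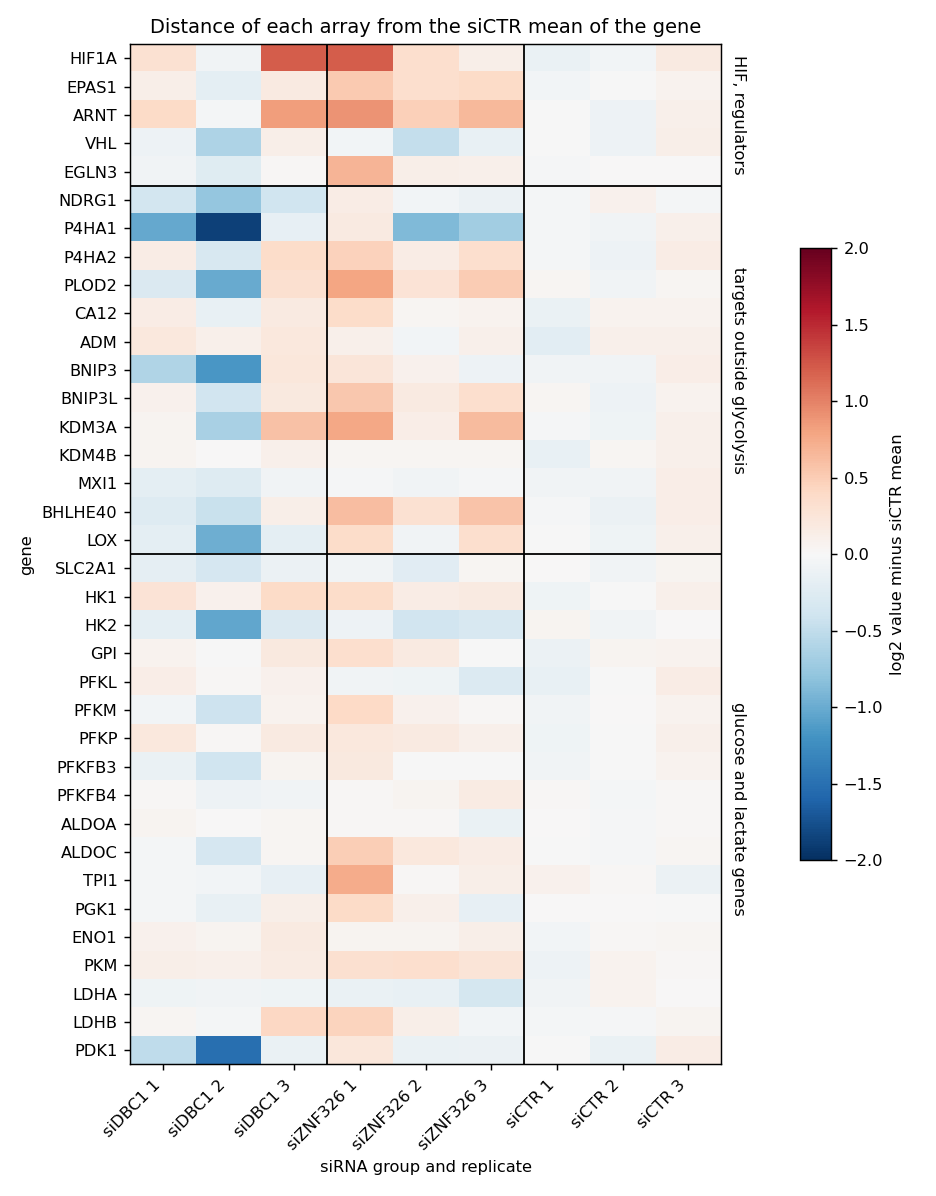
Distance of each array from the siCTR mean of the gene, on the log2 scale, for the 36 genes (rows, in 3 groups by role) on the 9 arrays (columns, by siRNA group and replicate). The darkest blue cells are P4HA1 and PDK1 in replicate 2 of siDBC1, and the strongest red cells are HIF1A in replicate 3 of siDBC1 and replicate 1 of the arrays labelled siZNF326.

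In siDBC1, 9 of the 13 targets outside glycolysis and 10 of the 18 glucose and lactate genes averaged below siCTR, and 3 of the 5 regulators above it. NDRG1, P4HA1, LOX, the glucose transporter SLC2A1, HK2 and LDHA lay below siCTR on all 3 arrays, and ENO1 and PKM lay above. None of the 36 genes passed at an adjusted p below 0.05, a threshold that 0.0363% of all probe sets passed in this comparison. At an unadjusted p below 0.05, 3 genes were lower (NDRG1, P4HA1 and HK2; 2.55% of all probe sets) and 0 higher (3.63% of all probe sets). The 6 genes below siCTR on every array compare with 3.66% of all probe sets, and the 2 above with 5.18%.

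NDRG1, a stress-responsive protein that low oxygen induces, had the smallest p of the list in siDBC1. It read 8.50, 8.09 and 8.47 in siDBC1, 9.02, 8.82 and 8.76 in the arrays labelled siZNF326 and 8.83, 8.95 and 8.83 in siCTR. All siDBC1 arrays were below all 6 others, whose ranges overlapped. The means were 8.35 ± 0.22 in siDBC1, 8.87 ± 0.14 in the arrays labelled siZNF326 and 8.87 ± 0.072 in siCTR (SD, n = 3 each). The difference from siCTR was −0.52 (SE 0.13, adjusted p = 0.446) or 1.43-fold lower, with an unadjusted p = 0.00410 and a 95% interval of −0.81 to −0.22. It was −0.39 without siDBC1 replicate 2 and between −0.59 and −0.39 over the 9 omissions of 1 array, each with an unadjusted p below 0.05.

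P4HA1, the catalytic subunit of the prolyl hydroxylase that stabilises collagen, had the largest difference in siDBC1. Its values were 6.97, 6.14 and 7.83 in siDBC1, 8.18, 7.12 and 7.30 in the arrays labelled siZNF326 and 7.97, 7.93 and 8.10 in siCTR. The siDBC1 arrays were widely spread, with replicate 2 lowest and replicate 3 just under siCTR, whereas the siCTR arrays lay close together. The means were 6.98 ± 0.85 in siDBC1, 7.53 ± 0.57 in the arrays labelled siZNF326 and 8.00 ± 0.092 in siCTR (SD, n = 3 each). The difference was −1.02 (SE 0.43, adjusted p = 0.801) or 2.03-fold lower, with an unadjusted p = 0.0460, and −0.60 without siDBC1 replicate 2. The promoter of P4HA1 printed above holds a single core. In the arrays labelled siZNF326, replicates 2 and 3 also read below siCTR and replicate 1 above it, a difference of −0.47 (SE 0.43, adjusted p = 0.779). It was −0.79 without replicate 1 and −0.26 without replicate 2.

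LOX, the lysyl oxidase that cross-links collagen, read 6.86, 6.08 and 6.86 in siDBC1, 7.42, 6.99 and 7.40 in the arrays labelled siZNF326 and 7.05, 6.97 and 7.16 in siCTR. Replicate 2 of siDBC1 lay far below the rest, and the other 2 siDBC1 arrays lay just under siCTR. The difference was −0.46 (SE 0.22, adjusted p = 0.870), and −0.20 without siDBC1 replicate 2. Its printed promoter holds 4 cores, the most of these genes. PLOD2, a lysyl hydroxylase of collagen, read 8.06, 7.35 and 8.68 in siDBC1, 9.15, 8.63 and 8.87 in the arrays labelled siZNF326 and 8.39, 8.28 and 8.39 in siCTR. Its siDBC1 arrays lay on both sides of siCTR, a difference of −0.33 (SE 0.30, adjusted p = 0.968). It turned to 0.013 without siDBC1 replicate 2 and was −0.65 without replicate 3.

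BNIP3 and BNIP3L, receptors that mark mitochondria for removal, differed in their patterns. BNIP3 read 7.73, 7.17 and 8.56 in siDBC1, 8.57, 8.42 and 8.23 in the arrays labelled siZNF326 and 8.27, 8.27 and 8.46 in siCTR, with siDBC1 replicates 1 and 2 below siCTR and replicate 3 above it, a difference of −0.51 (SE 0.31, adjusted p = 0.928). That was −0.19 without siDBC1 replicate 2 and −0.88 without replicate 3. BNIP3L read 8.04, 7.58 and 8.15 in siDBC1, 8.50, 8.13 and 8.30 in the arrays labelled siZNF326 and 7.99, 7.85 and 8.02 in siCTR, with siDBC1 replicate 2 below siCTR and replicates 1 and 3 just above it and a difference of −0.032 (SE 0.16, adjusted p = 0.999). ADM, which encodes the vasodilator peptide adrenomedullin, read 7.27, 7.16 and 7.27 in siDBC1, 7.16, 7.0 and 7.16 in the arrays labelled siZNF326 and 6.85, 7.16 and 7.16 in siCTR. The siDBC1 arrays were level with or above the 2 highest siCTR arrays, 5 of the 9 arrays held one same value, and the difference was 0.17 (SE 0.11, adjusted p = 0.928), or 0.070 without siCTR replicate 1.

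Among genes of glucose metabolism, HK2, a hexokinase that traps glucose in the cell and that HIF induces, read 7.42, 6.58 and 7.33 in siDBC1, 7.52, 7.23 and 7.30 in the arrays labelled siZNF326 and 7.68, 7.55 and 7.64 in siCTR. All arrays of both targeted groups were below siCTR, and siDBC1 replicate 2 was lowest by a wide margin. In siDBC1 the difference was −0.51 (SE 0.21, adjusted p = 0.792) or 1.42-fold lower, with an unadjusted p = 0.0434, and it was −0.24 without replicate 2. HK1, the hexokinase found in most tissues, ran the other way. It read 7.36, 7.17 and 7.47 in siDBC1, 7.45, 7.24 and 7.26 in the arrays labelled siZNF326 and 7.0, 7.08 and 7.19 in siCTR, above siCTR in mean, with siDBC1 replicate 2 inside the siCTR range and a difference of 0.24 (SE 0.11, adjusted p = 0.807). The difference of HK2 minus that of HK1 was not tested.

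PDK1, the kinase that keeps pyruvate out of mitochondria by switching off pyruvate dehydrogenase, read 7.26, 6.26 and 7.64 in siDBC1, 8.00, 7.64 and 7.65 in the arrays labelled siZNF326 and 7.76, 7.64 and 7.91 in siCTR. Replicates 1 and 2 of siDBC1 were below all other arrays. Replicate 3 held exactly the value of siCTR replicate 2, the lowest siCTR array, and of replicate 2 of the arrays labelled siZNF326. The difference was −0.72 (SE 0.32, adjusted p = 0.821) or 1.64-fold lower, and −0.32 without siDBC1 replicate 2. SLC2A1, the main glucose transporter of most cultured cells, read 8.14, 7.99 and 8.21 in siDBC1, 8.26, 8.09 and 8.36 in the arrays labelled siZNF326 and 8.34, 8.26 and 8.38 in siCTR. All siDBC1 arrays were below siCTR by a small margin, a difference of −0.21 (SE 0.098, adjusted p = 0.844).

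LDHA, the lactate dehydrogenase subunit that favours lactate formation, read 11.93, 11.93 and 11.93 in siDBC1, 11.88, 11.86 and 11.65 in the arrays labelled siZNF326 and 11.94, 12.08 and 12.01 in siCTR. The siDBC1 arrays agreed closely and lay just under the lowest siCTR array, with a difference of −0.080 (SE 0.083, adjusted p = 0.978). PGK1, which makes the first ATP of glycolysis, read 11.53, 11.42 and 11.68 in siDBC1, 11.94, 11.66 and 11.40 in the arrays labelled siZNF326 and 11.57, 11.56 and 11.54 in siCTR. The siCTR arrays lay within the range of both other groups, and the differences were −0.018 (SE 0.14, adjusted p = 0.999) in siDBC1 and 0.11 (SE 0.14, adjusted p = 0.837) in the arrays labelled siZNF326. Both genes hold 3 cores in a promoter window. LDHA, PGK1, ENO1 and other glycolytic genes have processed pseudogenes, so their probe sets may also read those copies.

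The regulators did not pass in siDBC1 either. HIF1A read 7.98, 7.61 and 8.88 in siDBC1, 8.88, 8.01 and 7.79 in the arrays labelled siZNF326 and 7.54, 7.62 and 7.85 in siCTR. Replicate 3 of siDBC1 and replicate 1 of the arrays labelled siZNF326, the arrays with the highest medians, stood clearly above the other 7. The differences were 0.48 (SE 0.37, adjusted p = 0.955) and 0.55 (SE 0.37, adjusted p = 0.706), with intervals of −0.38 to 1.35 and −0.31 to 1.42. They were 0.12 without the first of these arrays and 0.23 without the second, and the siDBC1 difference was 0.76 without siDBC1 replicate 2. VHL, the subunit that recognises hydroxylated HIF, read 7.58, 7.07 and 7.80 in siDBC1, 7.63, 7.21 and 7.54 in the arrays labelled siZNF326 and 7.68, 7.58 and 7.80 in siCTR, with each targeted group overlapping siCTR. Its differences were −0.20 (SE 0.19, adjusted p = 0.968) and −0.23 (SE 0.19, adjusted p = 0.763). In siDBC1 that was 0.0023 without replicate 2 and −0.36 without replicate 3, and in the arrays labelled siZNF326 it was −0.10 without replicate 2.

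As a group, the 36 genes had a median difference of −0.040 in siDBC1 (15 above and 21 below siCTR), against 0.014 for all probe sets. The median was −0.17 for the 13 targets outside glycolysis, −0.032 for the 18 glucose and lactate genes and 0.037 for the 5 regulators. By array, the targets outside glycolysis stood at −0.19, −0.44 and 0.18 from the siCTR mean in siDBC1 and at −0.039, −0.070 and 0.10 in siCTR. In median these targets therefore stood below the siCTR mean on 2 of the 3 siDBC1 arrays. Without siDBC1 replicate 2 the middle one of their 13 differences was 0.013 (PLOD2), and the median of all 36 genes was 0.028. Genes apart from siCTR on all arrays then numbered 11 above and 6 below (15.8% and 7.03% of all probe sets). Without siDBC1 replicate 3 they numbered 2 above and 15 below (10.8% and 13.8%), and without siCTR replicate 3 they numbered 6 above and 7 below (11.7% and 6.08%). They numbered 11 below and 3 above with arrays centred on their medians (6.77% and 6.55%), and 13 below and 4 above after quantile normalization (7.96% and 6.80%).

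**Figure D2:**
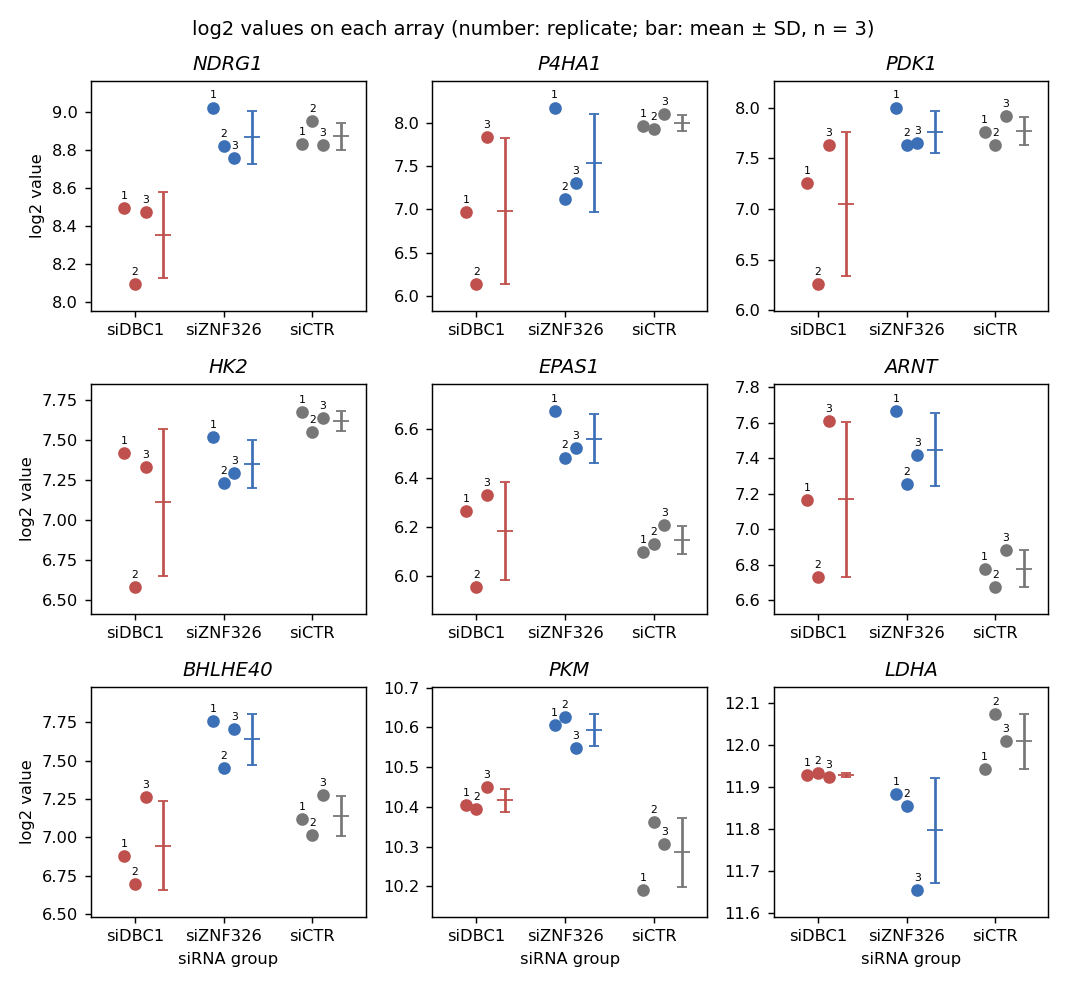
The log2 value of 9 genes on each array (points, numbered by replicate) in siDBC1, the arrays labelled siZNF326 and siCTR, with the mean ± SD (n = 3). Each panel has its own scale, which does not start at 0. NDRG1 lies below the other groups on all siDBC1 arrays, while EPAS1, ARNT, BHLHE40 and PKM lie above siCTR on all arrays labelled siZNF326.

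In the arrays labelled siZNF326, the HIF subunits EPAS1 and ARNT and several HIF targets read above siCTR, with HK2 and LDHA below. EPAS1, ARNT, EGLN3, PLOD2, BNIP3L, KDM3A, BHLHE40, HK1, ALDOC, ENO1 and PKM lay above siCTR on all 3 arrays, which is 11 of 36 genes (12.9% of all probe sets), and HK2 and LDHA lay below (5.27%). None of the 36 passed at an adjusted p below 0.05 (0.15% of all probe sets). At an unadjusted p below 0.05, EPAS1, ARNT, BHLHE40 and PKM were higher (4 genes; 6.13% of all probe sets) and LDHA was lower (1 gene; 2.52%). These values are set against the same siCTR arrays as those of siDBC1.

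EPAS1, the alpha subunit HIF-2 alpha, read 6.26, 5.95 and 6.33 in siDBC1, 6.68, 6.48 and 6.52 in the arrays labelled siZNF326 and 6.10, 6.13 and 6.21 in siCTR. The arrays labelled siZNF326 were above all other arrays, and the siDBC1 arrays spanned the siCTR range. The difference from siCTR was 0.41 (SE 0.11, adjusted p = 0.323) or 1.33-fold higher, with an unadjusted p = 0.00680, and 0.36 without replicate 1 of the arrays labelled siZNF326. ARNT, the shared partner of both alpha subunits, read 7.16, 6.73 and 7.61 in siDBC1, 7.67, 7.26 and 7.42 in the arrays labelled siZNF326 and 6.78, 6.68 and 6.88 in siCTR. All arrays labelled siZNF326 were above siCTR and within or near the wide siDBC1 range. Its difference was 0.67 (SE 0.21, adjusted p = 0.408) or 1.59-fold higher, and 0.56 without that replicate 1. EGLN3, an oxygen-sensing prolyl hydroxylase that HIF itself induces, read 6.47, 6.30 and 6.56 in siDBC1, 7.23, 6.65 and 6.64 in the arrays labelled siZNF326 and 6.51, 6.55 and 6.56 in siCTR. Replicate 1 of the arrays labelled siZNF326 was far above the others, and the difference was 0.30 (SE 0.16, adjusted p = 0.651), or 0.10 without that array.

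BHLHE40, a transcriptional repressor that low oxygen induces, read 6.88, 6.69 and 7.26 in siDBC1, 7.76, 7.45 and 7.71 in the arrays labelled siZNF326 and 7.12, 7.02 and 7.28 in siCTR. The arrays labelled siZNF326 were above all others, with means of 6.95 ± 0.29 in siDBC1, 7.64 ± 0.17 in the arrays labelled siZNF326 and 7.14 ± 0.13 in siCTR (SD, n = 3 each). The difference from siCTR was 0.50 (SE 0.16, adjusted p = 0.408) or 1.42-fold higher, with an unadjusted p = 0.0146, and its printed promoter holds 3 cores. KDM3A, a demethylase of histone H3 lysine 9, read 6.18, 5.47 and 6.72 in siDBC1, 6.90, 6.25 and 6.77 in the arrays labelled siZNF326 and 6.11, 6.04 and 6.23 in siCTR. The arrays labelled siZNF326 were above siCTR, replicate 2 of them by little, and siDBC1 spread to both sides. Its difference was 0.52 (SE 0.30, adjusted p = 0.672), against −0.0033 in siDBC1. For PLOD2 and BNIP3L, whose values stand above, the differences were 0.52 (SE 0.30, adjusted p = 0.666) and 0.35 (SE 0.16, adjusted p = 0.603).

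PKM, the pyruvate kinase of most tissues outside liver and red blood cells, had the smallest p of the list in this comparison. It read 10.40, 10.39 and 10.45 in siDBC1, 10.61, 10.63 and 10.55 in the arrays labelled siZNF326 and 10.19, 10.36 and 10.31 in siCTR. The 3 groups did not overlap: the arrays labelled siZNF326 were highest, siDBC1 next and siCTR lowest, with means of 10.42 ± 0.030 in siDBC1, 10.59 ± 0.041 in the arrays labelled siZNF326 and 10.29 ± 0.087 in siCTR (SD, n = 3 each). The difference from siCTR was 0.31 (SE 0.072, adjusted p = 0.250) or 1.24-fold higher in the arrays labelled siZNF326, with an unadjusted p = 0.00297, and 0.13 (SE 0.072, adjusted p = 0.913) in siDBC1. With arrays centred on their medians it was 0.22 for the arrays labelled siZNF326, with an unadjusted p = 0.067. After quantile normalization it was 0.29, with an unadjusted p = 0.0163. The printed PKM promoter has no ACGTG core, and the probe set does not tell the muscle-type and embryonic splice forms apart.

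LDHA differed from siCTR by −0.21 (SE 0.083, adjusted p = 0.530) in the arrays labelled siZNF326, lower on all 3, with an unadjusted p = 0.0357. Its value was −0.14 without replicate 3 of these arrays and −0.14 after quantile normalization. For HK2 the difference was −0.27 (SE 0.21, adjusted p = 0.738), for SLC2A1 −0.088 and for HK1 0.23. That of HK1 was 0.14 with arrays centred and 0.071 after quantile normalization. The differences were 0.049 for ADM, 0.074 for BNIP3 and −0.0064 for PDK1. ALDOC, the brain-type aldolase, read 6.36, 6.07 and 6.44 in siDBC1, 6.90, 6.62 and 6.54 in the arrays labelled siZNF326 and 6.39, 6.38 and 6.44 in siCTR. The arrays labelled siZNF326 were above both other groups, by 0.29 (SE 0.13, adjusted p = 0.591) from siCTR and by 0.18 without replicate 1.

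The median difference over the 36 genes was 0.16 in the arrays labelled siZNF326 (26 above and 10 below siCTR), against 0.032 for all probe sets. It was 0.41 for the 5 regulators, 0.16 for the 13 targets outside glycolysis and 0.094 for the 18 glucose and lactate genes. By array the median of all 36 genes was 0.33, 0.069 and 0.082 in the arrays labelled siZNF326, and −0.040, −0.020 and 0.069 in siCTR, so replicates 2 and 3 were close to siCTR replicate 3 and replicate 1 stood above them. The median was 0.063 without replicate 1, 0.069 with arrays centred on their medians and 0.062 after quantile normalization.  Genes below siCTR on all arrays numbered 5 of 36 without that replicate or with arrays centred (10.7% and 14.5% of all probe sets), and 8 after quantile normalization (14.3%). Those above numbered 17 without replicate 3 of the arrays labelled siZNF326 (20.3%).

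**Figure D3:**
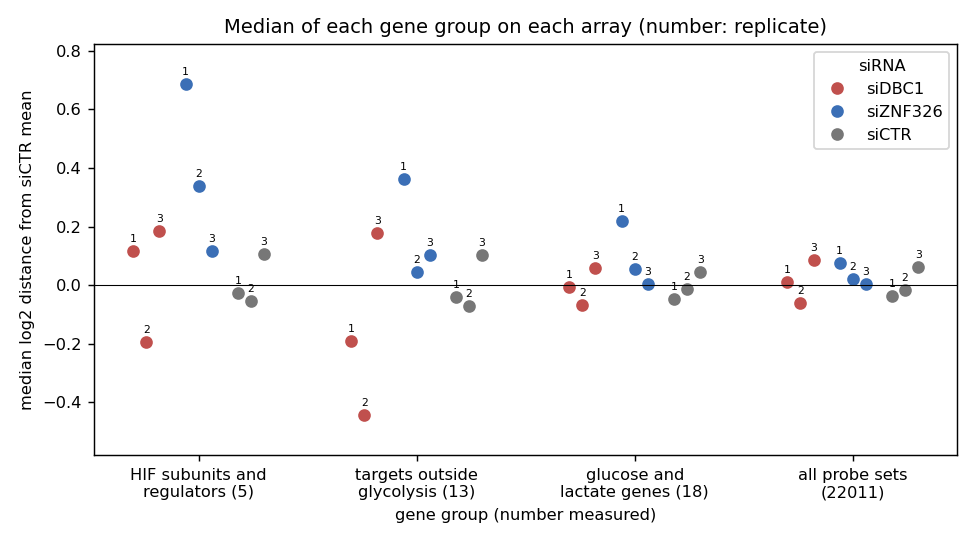
Median log2 distance from the siCTR mean over the genes of each role and over all probe sets (x axis), on each array (points, numbered by replicate), in siDBC1, the arrays labelled siZNF326 and siCTR. The targets outside glycolysis stand at −0.44 in replicate 2 of siDBC1 and at 0.18 in replicate 3, and the regulators reach 0.69 in replicate 1 of the arrays labelled siZNF326.

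Set against each other, the arrays labelled siZNF326 read above siDBC1 in mean for most targets. This comparison does not use the siCTR arrays, apart from their share in the estimate of the spread. None of the 36 genes passed at an adjusted p below 0.05 (0.00909% of all probe sets). At an unadjusted p below 0.05, 9 were higher in the arrays labelled siZNF326 (EPAS1, EGLN3, NDRG1, PLOD2, BNIP3L, BHLHE40, LOX, ALDOC and PKM; 4.88% of all probe sets) and 0 lower (2.43%). On all 3 arrays 8 genes were above siDBC1 (5.21% of all probe sets) and 2, PFKL and LDHA, were below (4.24%).

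BHLHE40 had the smallest p, with a difference of 0.69 (SE 0.16, adjusted p = 0.435) or 1.62-fold higher and an unadjusted p = 0.00273. NDRG1 followed, at 0.51 (SE 0.13, adjusted p = 0.518) or 1.43-fold higher with an unadjusted p = 0.00430. Without siDBC1 replicate 2 these were 0.57 and 0.38. EPAS1 differed by 0.38 (SE 0.11, adjusted p = 0.609), and kept an unadjusted p below 0.05 in each of the 9 omissions of 1 array, as BHLHE40, NDRG1 and ALDOC did. The collagen enzymes PLOD2 and LOX differed by 0.85 (SE 0.30, adjusted p = 0.645) and 0.67 (SE 0.22, adjusted p = 0.645), and by 0.51 and 0.41 without siDBC1 replicate 2. ALDOC differed by 0.40, EGLN3 by 0.39, BNIP3L by 0.39 and PKM by 0.18. EGLN3 was at 0.20 without replicate 1 of the arrays labelled siZNF326 and BNIP3L at 0.21 without siDBC1 replicate 2. PKM was at 0.10 with arrays centred on their medians and at 0.18 after quantile normalization. An unadjusted p below 0.05 was kept in 7 of the 9 omissions by LOX, in 6 by PLOD2, in 3 by EGLN3 and by PKM, and in 2 by BNIP3L. For PDK1 the difference was 0.71 (SE 0.32, adjusted p = 0.692), and 0.32 without siDBC1 replicate 2. HK2, below siCTR in both targeted groups, differed by 0.24 (SE 0.21, adjusted p = 0.799) between them and by −0.026 without that array, or by 0.16 without replicate 1 of the arrays labelled siZNF326.

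The median of the 13 targets outside glycolysis was 0.51 in this comparison, with 11 above and 2 below. Without siDBC1 replicate 2 the middle one of these 13 differences was 0.19 (KDM3A). On all arrays 3 of the 13 were above siDBC1 (5.21% of all probe sets). The median was 0.28 for the 5 regulators and 0.13 for the 18 glucose and lactate genes, against 0.024 for all probe sets. For all 36 genes the median was 0.19 (28 above and 8 below). It was 0.077 without siDBC1 replicate 2 and 0.33 without siDBC1 replicate 3, with 6 and 17 genes at an unadjusted p below 0.05 (5.97% and 19.0% of all probe sets). With arrays centred it was 0.12, and 0.11 after quantile normalization. Genes above siDBC1 on all arrays numbered 18 without siDBC1 replicate 3 (22.6% of all probe sets) and 14 without replicate 2 of the arrays labelled siZNF326 (9.10%). Those below numbered 5 without siDBC1 replicate 2 (9.28%) and 0 after quantile normalization (6.06%).

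**Figure D4:**
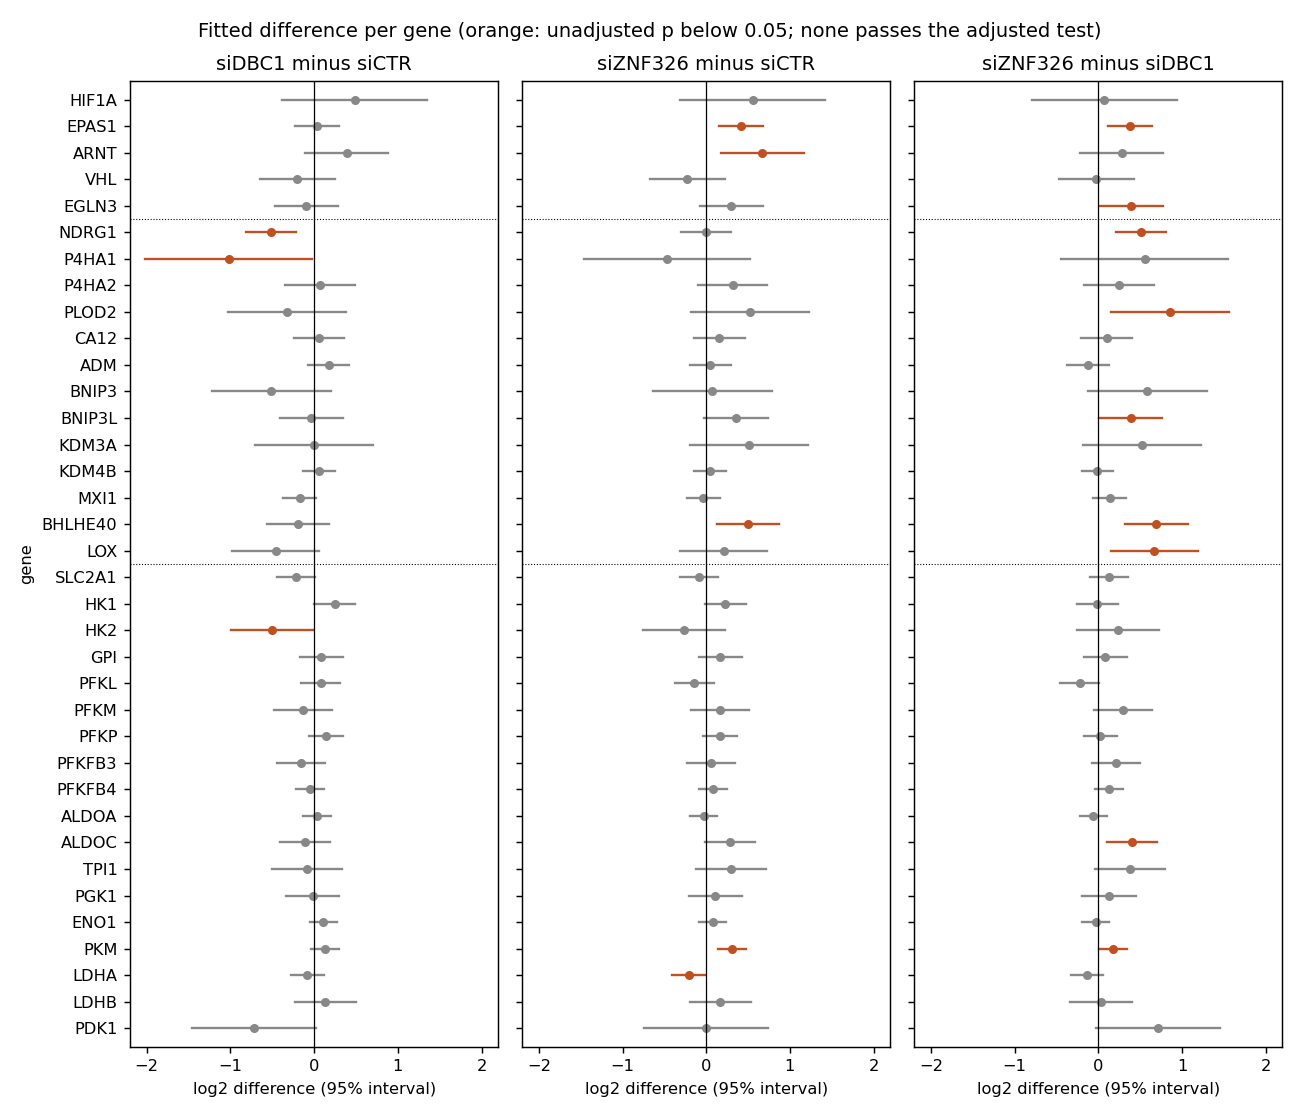
Fitted log2 difference with its 95% interval (x axis) for each of the 36 genes (y axis, in 3 groups by role) in siDBC1 minus siCTR, siZNF326 minus siCTR and siZNF326 minus siDBC1. Orange marks an unadjusted p below 0.05, which 3, 5 and 9 genes reach, and none passes after adjustment over all probe sets.

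None of the other 14 genes reached an unadjusted p below 0.05 in any comparison. Their differences ran from −0.17 (MXI1, an antagonist of MYC) to 0.14 (PFKP) in siDBC1, and from −0.14 (PFKL) to 0.32 (P4HA2, a second collagen prolyl hydroxylase) in the arrays labelled siZNF326, with a smallest unadjusted p of 0.0823 and 0.0938. The 3 phosphofructokinases, which catalyse the committed step of glycolysis, differed by 0.079 (PFKL), −0.13 (PFKM) and 0.14 (PFKP) in siDBC1, and by −0.14, 0.17 and 0.16 in the arrays labelled siZNF326. PFKFB3 and PFKFB4, which set the level of their activator, differed by −0.16 and −0.047 in siDBC1 and by 0.056 and 0.080 in the arrays labelled siZNF326. ALDOA, an aldolase, and GPI, the glucose phosphate isomerase, differed by 0.034 and 0.084 in siDBC1 and by −0.028 and 0.17 in the arrays labelled siZNF326.

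ENO1, the enolase of most tissues, read 11.88, 11.84 and 11.96 in siDBC1, 11.84, 11.84 and 11.90 in the arrays labelled siZNF326 and 11.73, 11.80 and 11.82 in siCTR. Both targeted groups were above siCTR by small margins, 0.11 (SE 0.069, adjusted p = 0.931) in siDBC1 and 0.076 (SE 0.069, adjusted p = 0.777) in the arrays labelled siZNF326. The second turned to −0.016 with arrays centred on their medians and was 0.10 after quantile normalization. LDHB, the second lactate dehydrogenase subunit, differed by 0.14 and 0.17. CA12, a membrane carbonic anhydrase, differed by 0.061 and 0.16, and KDM4B, another histone demethylase, by 0.056 and 0.046. TPI1, triose phosphate isomerase, read below the lower quartile on all 9 arrays, so its differences of −0.086 and 0.30 say little. P4HA2 had a second, dimmer probe set, which differed by 0.025 and −0.079 where the brighter one differed by 0.067 and 0.32.

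Further genes of the pathways, which are not in the list of 43, gave 1 call. Of 36 other genes of the hypoxia response measured, 1 passed in siDBC1 and 0 in the arrays labelled siZNF326, with medians of −0.0078 and 0.083. At an unadjusted p below 0.05, 7 were lower and 1 higher in siDBC1 (2.55% and 3.63% of all probe sets), and 5 lower and 7 higher in the arrays labelled siZNF326 (2.52% and 6.13%). The lower genes of both comparisons include VEGFA and DDIT4, which were kept out of the list of 43 because ATF4 controls them too. The call was VEGFA, the angiogenic growth factor, which read 6.28, 6.05 and 6.42 in siDBC1, 6.46, 6.44 and 6.58 in the arrays labelled siZNF326 and 7.49, 7.25 and 7.63 in siCTR. It fell by 1.21 on the log2 scale in siDBC1 (adjusted p = 0.0494), a call lost with each of the 9 omissions of 1 array (adjusted p = 0.0911 to 0.331), and stood at −0.97 in the arrays labelled siZNF326 (adjusted p = 0.0526). DDIT4, an inhibitor of mTORC1, read 7.32, 6.91 and 7.32 in siDBC1, 7.40, 7.07 and 7.16 in the arrays labelled siZNF326 and 8.04, 8.39 and 8.24 in siCTR, below siCTR on all arrays of both groups (−1.04 and −1.01). The stanniocalcins STC1 and STC2, secreted glycoproteins, were below siCTR on all arrays of both groups too. STC1 differed by −0.97 in siDBC1 and −0.62 in the arrays labelled siZNF326 (adjusted p = 0.127 and 0.222), and STC2 by −1.13 and −1.15 (adjusted p = 0.172 and 0.0798).

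Of 29 other genes of glucose metabolism measured, 0 passed in either comparison with siCTR, with medians of 0.0059 and 0.088. At an unadjusted p below 0.05, 1 was higher and 1 lower in siDBC1 (3.63% and 2.55% of all probe sets), and 4 were higher and 0 lower in the arrays labelled siZNF326 (6.13% and 2.52%). TIGAR, a fructose bisphosphatase that p53 induces and that slows glycolysis, read 7.08, 6.34 and 7.78 in siDBC1, 7.96, 7.64 and 7.16 in the arrays labelled siZNF326 and 5.84, 6.08 and 6.07 in siCTR. It was above siCTR on all arrays of both groups, by 1.07 (SE 0.35, adjusted p = 0.669) and 1.59 (SE 0.35, adjusted p = 0.217). ENO2, the neuronal enolase, was below siCTR on all siDBC1 arrays and above it on all arrays labelled siZNF326, with differences of −0.36 and 0.25, and the groups differed from each other by 0.61 (SE 0.15, adjusted p = 0.465). PDP1, the phosphatase that reverses the action of PDK1, differed by −0.094 in siDBC1 and by 0.47 (SE 0.085, adjusted p = 0.110) in the arrays labelled siZNF326. PGD, of the pentose phosphate pathway, differed by 0.0040 and by 0.48 (SE 0.13, adjusted p = 0.325). PGAM2, the muscle phosphoglycerate mutase, differed by 0.15 and 0.25.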

How the data were processed

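Total RNA from HEK293 cultures, treated with DNase and depleted of ribosomal RNA, was hybridised to whole-transcript Affymetrix arrays, per the labels' protocols. The deposited log2 values, 1 for each probe set and array, were made by the authors with RMA on build hg18, per the submitters' processing notes, which give no version. The number of arrays limits the precision, and probes near background are not marked. Exactly the same value stood on 2 or more arrays for 41.4% of probe sets and for 14 of the 36 genes. The reason for these repeats is not known, and the values were fitted as deposited.

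Probe sets were named from the platform annotation, and a gene with several was read from the one with the highest mean. The current gene table kept all 36 symbols. A model of the 3 groups was fitted to all 22011 probe sets with limma 3.58.1 (lmFit, eBayes) in R 4.3.3, two-sided, with Benjamini-Hochberg adjustment over all of them. Probe sets with an adjusted p below 0.05 were called. The fit was tested on simulated data. Values on every array are given for genes with an unadjusted p below 0.05 in any comparison, the 4 highest and 4 lowest differences from siCTR, and HIF1A, VHL, EGLN1, SLC2A1, HK2, PGK1, LDHA and PKM, with ENO1 added after its values were seen. EGLN1, named in this rule, had no probe set of its own. Other pathway genes are named if called or among the 3 with the smallest p in a comparison with siCTR. Members and lists were chosen with earlier results of these data known. The alternatives were scaling between arrays, a filter on dim probe sets, the arrays in the fit, a block, the probe set rule and the omission of each array. The counts of groups apart and of unadjusted p under them were added after seeing the data.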

Additional observations from a re-analysis of the deposited data

How the results depend on the processing

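None of the 36 genes was called by limma under any of the 15 alternatives in any comparison. At an unadjusted p below 0.05 their number ran from 1 to 10 in siDBC1 against siCTR (3 as reported; 10 without siDBC1 replicate 3), from 3 to 12 in the arrays labelled siZNF326 against siCTR (5; 12 without siDBC1 replicate 2) and from 4 to 17 between the targeted groups (9; 17 without siDBC1 replicate 3). Under the omissions named here, the share of all probe sets at an unadjusted p below 0.05 rose too. In the same order of comparisons it went from 6% to 9%, from 9% to 12% and from 7% to 19%. Of 1617 single differences under an alternative, 1591 moved by less than 1 residual SD and 26 by more, 16 of them under quantile normalization. Many of the 1591 could not move, so this count does not measure how stable the differences are. The dim filter, the block, the fit of only the groups compared and the omission of an array outside the comparison leave a difference unchanged. The probe set rule does so for genes with 1 probe set. The median over the 36 genes ran from −0.086 to 0.028, from 0.063 to 0.20 and from 0.077 to 0.33 over the omissions, the last without siDBC1 replicates 2 and 3 in turn.

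Among all probe sets, 8 were called in siDBC1, 33 in the arrays labelled siZNF326 and 2 between the targeted groups. These numbers were 46, 119 and 9 with arrays centred on their medians and 69, 196 and 28 after quantile normalization. A fit of only the groups compared called 0, 5 and 0 by limma, with 1100, 2844 and 1118 at an unadjusted p below 0.05. Over the omissions they ran from 0 to 4, from 1 to 64 (64 without siDBC1 replicate 2) and from 0 to 1, and the omissions with 0 calls had from 979 to 1290 at an unadjusted p below 0.05. The fit with a replicate block called 0, 1 and 0, with 1360, 2007 and 1769 at an unadjusted p below 0.05. Same-numbered arrays deviated together with correlations from −0.30 to 0.40, and not every array correlated best with its own number. Each siDBC1 array correlated best with the siCTR array of its own number. Replicate 1 of the arrays labelled siZNF326 correlated best with siDBC1 replicate 3 (0.61). Deviations from a group mean depend on each other, so these correlations cannot decide whether the numbers pair the arrays. The cause of these shifts was not tested.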
